A study of Mus musculus with 20 samples.

Results

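Desmosomes are the junctions that anchor the keratin filaments of one keratinocyte to those of its neighbour. Their cadherins, the desmogleins and desmocollins, bind across the gap between cells, plakoglobin and the plakophilins dock on the cadherin tails inside the cell, and desmoplakin ties this plaque to the keratins. In the epidermis the cadherin isoforms are layered, with Dsg3 and Dsc3 known from the lower layers and Dsg1 and Dsc1 from the upper layers.

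The 10 desmosome genes described here were chosen by name: the desmogleins Dsg1a, Dsg2 and Dsg3, the desmocollins Dsc1, Dsc2 and Dsc3, desmoplakin (Dsp), plakoglobin (Jup) and the plakophilins Pkp1 and Pkp3. They are 10 of the 53380 genes in the table, and all 10 passed the filter on low values (a normalized count of at least 10 in at least 3 libraries), as did 17204 genes in all.

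The study asked whether the surface protein Thy1 marks a separate population of basal keratinocytes in adult mouse dorsal skin, and sequenced bulk RNA of 5 sorted populations in 20 libraries. Thy1hi cells (4 libraries) and Thy1- cells (4) are keratinocytes with integrin α6 and Sca1 on their surface, Thy1hiYFP+ cells (3) are Thy1hi keratinocytes that also carry the yellow reporter EYFP, HFSC (4) are CD34+Sca1- hair follicle stem cells, and DETC (5) are Thy1+ dendritic epidermal T cells without α6 and low in Sca1. The labels give all 20 libraries the genotype Thy1.2CreERT2-Rosa26-EYFP and no treatment, whereas the study's methods give wild-type C57BL/6J mice for the other 4 populations and induced Thy1-CreERT2;R26-EYFP mice for Thy1hiYFP+ cells. In that line the Thy1 promoter drives the Cre, and the cell type label of the Thy1hiYFP+ libraries says Sca1- where their titles and the study give Sca1+. The sample labels give ages from 8 to 27 weeks, 1 week apart from sample to sample, and the text of the series gives 8 weeks. By the labels, age rises from HFSC over DETC, Thy1hiYFP+ and Thy1hi to Thy1- cells, and no populations share an age. If the label ages hold, age and population cannot be told apart in any comparison. Neither the labels nor the text of the series says how many mice stand behind each library. The study gives numbers of mice for some displays of these populations and pooled mice for others. The p-values therefore measure the spread between these libraries, which may be technical. The study's methods give tamoxifen for the induction. The genotype, the induction and the sort cannot be told apart wherever Thy1hiYFP+ cells are compared with another population.

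Each library held 7781256 to 12982393 reads on genes, and values are normalized counts, which are reads divided by 1 size factor per library. The summed marker lists followed the labels. The 7 hair follicle stem cell markers summed to 7049 to 10942 normalized counts in HFSC and at most 3142 elsewhere. The 7 T cell markers summed to 19486 to 40345 in DETC and at most 429 elsewhere. Cd34, the surface marker used to sort HFSC, had 1599.8 to 2622 normalized counts in HFSC and at most 130.1 in any other library. The T cell marker Cd3e had 3435 to 6287 in DETC and at most 83.4 elsewhere. Single markers could overlap: Sox9 had 1235 in the lowest HFSC library and 1733 to 1823 in Thy1- libraries. A pair of libraries stood apart. HFSC replicate 4 was the lowest of the 4 HFSC libraries in 8 of the 10 desmosome genes and had the smallest share of reads on the ribosomal RNA gene Rn45s, 13.1% against up to 41.5%. One of the DETC libraries that the table does not tie to a single sample, called DETC a here, was the lowest of the 5 in all 10 genes. Results below include both libraries unless stated, and values without 1 of them are given for some results only.

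The 6 cadherin genes lie in 1 cluster on chromosome 18 in mm10, the build of the files. Dsc3 (18:19960930-20002351), Dsc2 (18:20030633-20059554) and Dsc1 (18:20084184-20114871) are on the minus strand, and Dsg1a (18:20310811-20343350), Dsg3 (18:20510304-20541310) and Dsg2 (18:20558074-20604521) follow on the plus strand, with Dsg1c, Dsg1b and Dsg4 among them. The plaque genes are scattered: Dsp is at 13:38151294-38198577 (plus), Jup at 11:100368958-100397763 (minus), Pkp1 at 1:135871395-135919207 (minus) and Pkp3 at 7:141078218-141090510 (plus). Dsg1a has close paralogs, Dsg1b and Dsg1c, between which reads can be divided wrongly, so its level is less certain than the others.

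All 10 genes were detected in every library, at very different levels. Set per kilobase of exon, the order began with Dsp, Dsc3, Pkp1 and Jup in each of the 5 populations, and Dsc2 came last in each. Dsp alone made up 49.8% of the summed level per kilobase of the 10 genes in Thy1hi cells, 49.9% in Thy1hiYFP+ cells, 50.9% in Thy1- cells, 60.4% in HFSC and 56.4% in DETC. In Thy1- cells Dsp stood at 6922 ± 739 normalized counts per kb (SD, n = 4) and Dsc2 at 9.27 ± 4.99 on the same scale. Between them, Dsg1a (540.1 ± 64.5 per kb), Pkp3 (463 ± 53.0 per kb) and Dsg3 (382 ± 105 per kb) were neighbours whose SDs overlapped in Thy1- cells.

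RefSeq promoter sequence was at hand for 2 of the 10 genes, Dsp and Jup, the most abundant desmosome transcript and the plaque protein shared with adherens junctions. The libraries of both genes overlapped in every comparison among the 4 populations other than DETC. The 250 bases before each start site are shown for these genes because their sequence was at hand. Both are read 5′ to 3′ on the strand of the gene in GRCm38.p6 (Dsp chr13:38151044-38151293, Jup chr11:100397791-100398040), and capitals mark GC boxes (GGGCGG or its reverse complement CCGCCC) and CCAAT boxes (CCAAT or ATTGG).
Dsp: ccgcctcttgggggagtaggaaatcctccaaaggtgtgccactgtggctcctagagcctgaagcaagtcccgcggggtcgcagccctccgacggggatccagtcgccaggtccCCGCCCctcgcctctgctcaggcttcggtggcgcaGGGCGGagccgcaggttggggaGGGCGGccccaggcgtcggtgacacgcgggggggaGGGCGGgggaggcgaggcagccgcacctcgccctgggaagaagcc
Jup: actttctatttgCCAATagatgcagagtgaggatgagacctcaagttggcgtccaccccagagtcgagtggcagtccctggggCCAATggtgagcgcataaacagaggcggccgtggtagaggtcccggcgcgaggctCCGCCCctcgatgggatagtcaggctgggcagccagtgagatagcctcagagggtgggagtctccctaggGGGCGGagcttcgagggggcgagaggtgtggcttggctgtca
The Dsp window held 72.4% G and C, 4 GC boxes and no CCAAT box, and the Jup window held 62% G and C, 2 GC boxes and 2 CCAAT boxes. Neither held TATAAA or TTTATA. Among 32851 promoters in the same table, 32.7% held a GC box, 33.8% a CCAAT box and 12.4% TATAAA or TTTATA in the window of the same length. These letter matches are a description and not evidence of a bound factor.

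The order of the cadherins per kilobase was not the same in every population. Dsg3 was the fifth of the 10 in Thy1hi cells, at 527 ± 30.3 normalized counts per kb (SD, n = 4), ahead of Dsg1a at 432 ± 85.9. It was the seventh by mean in Thy1hiYFP+ cells, Thy1- cells and HFSC, and its rank was 8 in DETC, with Dsg1a ahead in each. Single libraries varied: the ratio of Dsg3 to Dsg1a counts was 1.19 to 1.84 in Thy1hi and 0.639 to 1.29 in Thy1- libraries. That ratio was 0.754 to 1.39 in Thy1hiYFP+ libraries and 0.693 to 1.75 in HFSC. Each of these ranges overlapped that of Thy1hi libraries. Dsg2 was above Dsc1 in Thy1hi cells, with 184 ± 18.5 against 87.2 ± 53.2 normalized counts per kb, and below it in the other 4 populations.

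**Figure D1:**
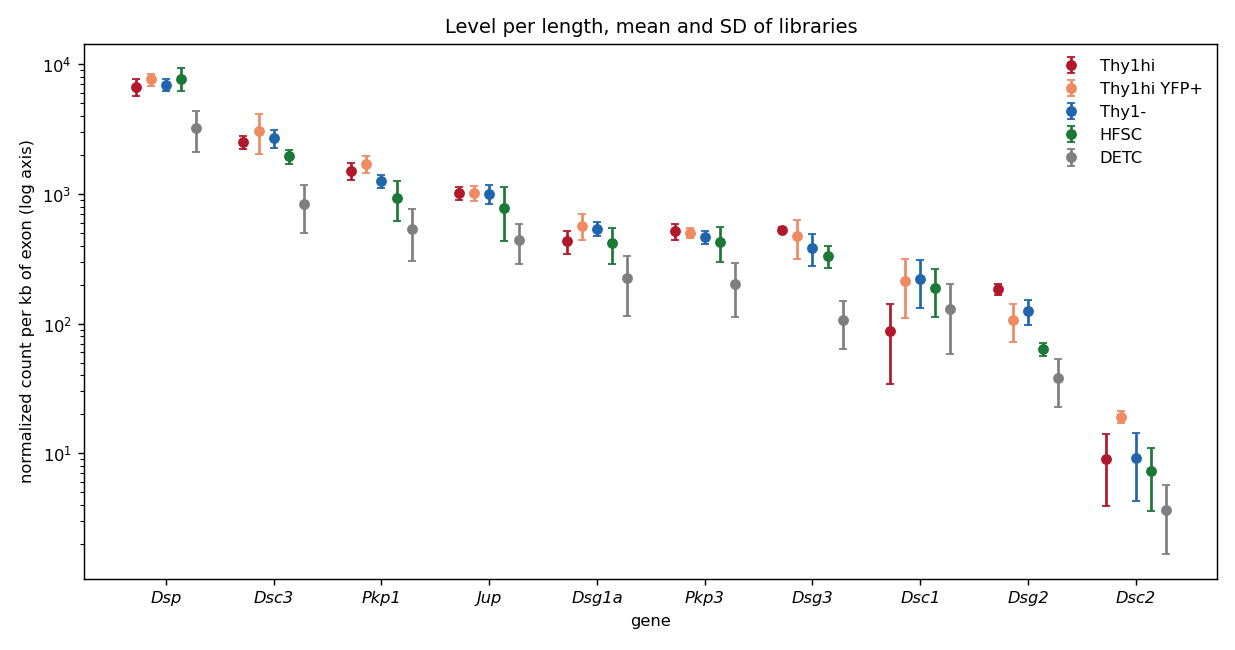
Normalized counts per kb of exon (y axis, log scale) for the 10 desmosome genes (x axis), with points for the mean and bars for the SD over the libraries of each population. Dsp is the highest and Dsc2 the lowest in all 5 populations, and DETC (grey) has the lowest mean for every gene but Dsc1.

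The study's central contrast is between Thy1hi and Thy1- keratinocytes. None of the 10 desmosome genes passed limma's adjusted p threshold of 0.05 (0.337% of all genes did). The unadjusted p was under 0.05 for 1, Dsc1 (1242 of 17204 genes). On the recovered reads edgeR (0.256% of all genes called) and DESeq2 (1.55%) also called 0. Libraries with the same number tended to deviate together in these populations, however (r 0.293 to 0.716, against -0.651 to 0.514 for other pairs). These ranges overlap, and the pairing comes from the data and the shared numbers. With the number as a block limma called 3 of the 10: Dsg2 and Dsg3 rose and Dsc1 fell in Thy1hi cells (of all genes 6.61% were called in that fit, 3.42% higher and 3.19% lower). That fit held the Thy1hi and Thy1- libraries alone. With the same block in a fit of all 5 populations 0 of the 10 were called (216 of 17204 genes were). There the limma adjusted p was 0.0592 for Dsg2, 0.219 for Dsg3 and 0.149 for Dsc1. The other 7 were not called in any of these fits.

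Dsg2 is the desmoglein of simple epithelia and of the deepest epidermal cells. It had 1438, 1436, 1753 and 1472 normalized counts in Thy1hi replicates 1 to 4 and 1059, 743, 1285 and 1036 in Thy1- replicates 1 to 4. Every Thy1hi library lay above every Thy1- library. The difference was 0.59 on the log2 scale (SE 0.32), with a limma adjusted p of 0.774 without the block, 0.0122 with it and 0.0122 to 1 over all alternatives, and an exact two-sided permutation p of 0.0286, the smallest that 4 against 4 libraries allow.

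Dsg3, the desmoglein of the basal layers, was also higher in each same-numbered pair. Its normalized counts were 3751, 3568, 3933 and 3451 in Thy1hi libraries and 3386, 2056, 3211 and 2018 in Thy1- libraries, again with no overlap, although Thy1hi replicate 4 and Thy1- replicate 1 were close. The log2 difference was 0.50 (SE 0.33), with a limma adjusted p of 0.910 without the block and 0.0456 with it (0.0456 to 1 over alternatives). The exact permutation p was 0.0286. Dsg2 and Dsg3 were the 2 genes of the 10 whose Thy1hi libraries all lay above the Thy1- libraries, which 3.59% of all genes did.

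Dsc1, a desmocollin of the upper layers, went the other way. Thy1hi libraries had 117, 381, 499 and 763.5 normalized counts, and Thy1- libraries had 544, 1597, 1320.4 and 996. The groups overlapped, since Thy1- replicate 1 lay below Thy1hi replicate 4, but within each of the 4 same-numbered pairs the Thy1hi library was lower, with log2 differences of -2.21, -2.07, -1.40 and -0.38. The mean log2 change was -1.51 (SE 0.57), 2.86-fold lower, with a limma adjusted p of 0.447 without the block and 0.00535 with it (0.00535 to 1 over alternatives). The exact permutation p was 0.0571.

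**Figure D2:**
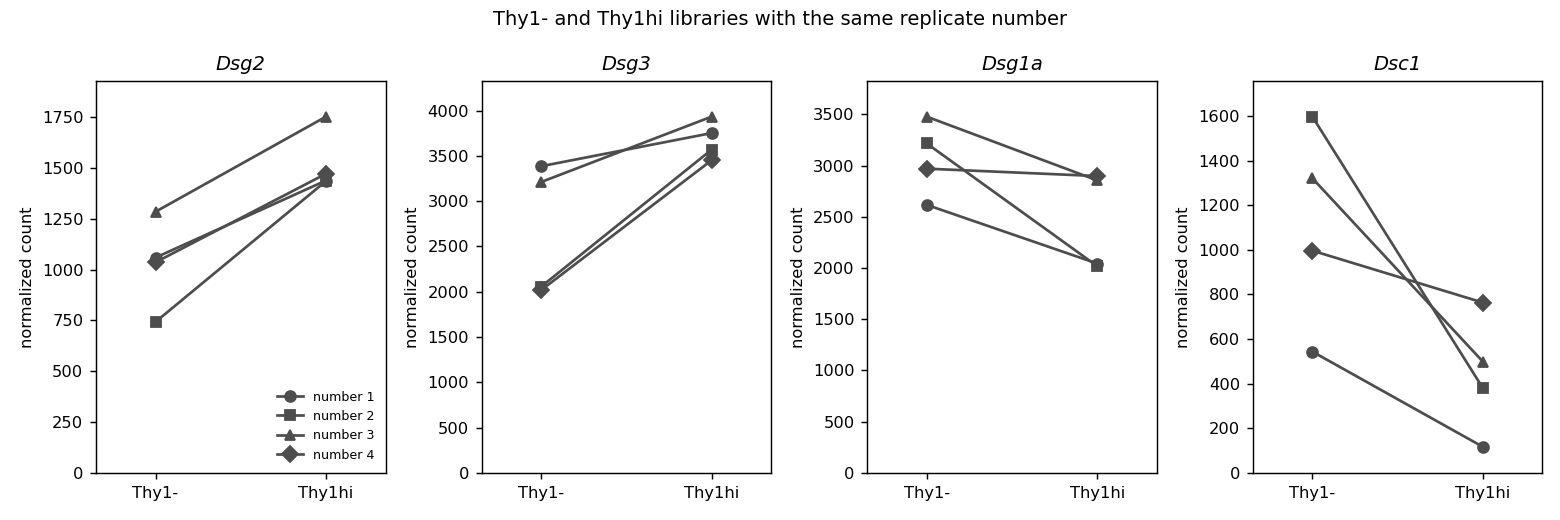
Normalized counts (y axes from 0) of 4 desmosomal cadherin genes in Thy1- and Thy1hi libraries, with lines joining libraries of the same replicate number. Dsg2 and Dsg3 are higher in Thy1hi cells in 4 of 4 pairs, and Dsg1a and Dsc1 are lower in 4 of 4 pairs.

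Dsg1a, a desmoglein of the differentiating layers, had 2045, 2019, 2856 and 2899 normalized counts in Thy1hi libraries and 2617, 3217, 3479 and 2971 in Thy1- libraries. It was lower in Thy1hi cells in 4 of 4 pairs, but the log2 difference of -0.34 (SE 0.41) did not pass limma's test without the block (adjusted p 0.999) or with it (0.128). Pkp1, the plakophilin of stratified epithelia, was higher in 4 of 4 pairs by a mean log2 difference of 0.25 (SE 0.39, limma adjusted p 0.999, or 0.208 with the block). For Dsc2, Dsc3, Dsp, Jup and Pkp3 the log2 differences lay between -0.10 and 0.14, although quantile normalization moved Dsp to -0.73 (limma adjusted p 0.830). Dsc3, a desmocollin of the lower layers, was lower in Thy1hi cells in 4 of 4 pairs. Its log2 differences were small, at -0.18, -0.0020, -0.17 and -0.036. The median over the 10 genes was 3.83e-05 against -0.02 over all genes tested.

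The levels of 2 cadherin pairs were also set against each other within each library, which does not depend on scaling. The ratio of Dsg3 to Dsg1a was 1.19 to 1.84 in Thy1hi libraries, with a geometric mean of 1.52 (n = 4), and 0.639 to 1.29 in Thy1- libraries, with a geometric mean of 0.849. The ratio was higher in the Thy1hi library of all 4 pairs, and the mean log2 difference was 0.84 (SE 0.28). Its exact two-sided permutation p was 0.0571, or 0.114 adjusted over the 6 ratio tests, so it did not pass.

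The ratio of Dsc3 to Dsc1 was 109, 33.4, 31.6 and 16.9 in Thy1hi replicates 1 to 4 and 26.4, 7.96, 13.5 and 13.3 in Thy1- replicates 1 to 4. It too was higher in the Thy1hi library of all 4 pairs, by 1.42 on the log2 scale on average (SE 0.66, exact permutation p 0.0571, adjusted p 0.114). Dsc3 itself differed by -0.10 and Dsc1 by -1.51, so this ratio restates the lower Dsc1. HFSC libraries had 0.693 to 1.75 for Dsg3 to Dsg1a, and 7.29 to 15.0 for Dsc3 to Dsc1 with a geometric mean of 11.7 (n = 4). Against HFSC the Thy1hi ratio of Dsc3 to Dsc1 was 1.67 higher on the log2 scale (SE 0.61), with no overlap between libraries and the smallest exact permutation p of 0.0286, which the adjustment raised to 0.114. None of the 6 ratio tests passed.

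Markers of the epidermal layers moved in the same comparison, in which 0.337% of all genes were called without the block and 6.61% with it. All 8 basal keratinocyte markers were higher in Thy1hi than in Thy1- cells (median log2 difference 0.78, 0 called without the block and 6 with it), and all 10 suprabasal markers were lower (median -1.23, 0 called without the block and 9 with it). Krt14, the basal keratin, differed by 1.11 and Krt10, the keratin of cells that have left the basal layer, by -1.42 on the log2 scale (limma adjusted p with the block 0.00567 and 0.00335, without it 0.497 and 0.494). The summed suprabasal markers ranged from 11350.0 to 35971 normalized counts in Thy1hi libraries and from 33406 to 51077 in Thy1- libraries, and none of the markers was at 0 in every library of either population. The 5 fibroblast markers were higher in Thy1hi cells as well (median 1.80, 0 called without the block and 4 with it), summing to 163 to 1912 against 102 to 176 normalized counts. All 4 Langerhans cell markers (median -0.71, 0 called without the block and 4 with it) and all 7 hair follicle stem cell markers (median -0.64, 0 and 2 called) were lower, and of 7 T cell markers 6 were higher (median 0.37, 0 and 1 called). The part of any of these cells in the differences of Dsg2, Dsg3 and Dsc1 was not tested.

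Against HFSC, Dsg2 was the clearest of the 10 genes. It was called higher in Thy1hi cells, and it was the 1 gene of the 10 called in that comparison (13.4% of all genes were called, 6.51% as higher). HFSC had 573, 525, 567 and 442 normalized counts of Dsg2 in replicates 1 to 4, all below the lowest Thy1hi library at 1436. The log2 difference was 1.53 (SE 0.32), 2.90-fold, with a limma adjusted p of 0.00243 (3.79e-06 to 0.0208 over alternatives) and an exact permutation p of 0.0286. Without HFSC replicate 4 it was 1.45 (adjusted p 0.00819).

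Thy1- cells also had more Dsg2 than HFSC. Every Thy1- library, at 743 or more, lay above every HFSC library. The log2 difference of 0.95 (SE 0.32), 1.93-fold, missed limma's threshold at an adjusted p of 0.0765 (0.00053 to 0.244 over alternatives), with an exact permutation p of 0.0286. With DESeq2 the adjusted p was 0.0171. Without HFSC replicate 4 the log2 difference was 0.87 (limma adjusted p 0.136). No other gene of the 10 had an unadjusted limma p under 0.05 between Thy1- cells and HFSC (4085 of 17204 genes did). Of the 10, 0 were called (6.08% of all genes). DESeq2 called 1 (14% of all genes) and edgeR 0 (7.49%). Dsg2 thus took the order Thy1hi, Thy1-, HFSC with no overlap at either step, although without the block 1 of the 3 differences was called.

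In Thy1hi cells 4 of the 10 genes, Dsg2, Dsg3, Dsc3 and Pkp1, had every library above every HFSC library (9.46% of all genes did). Dsg3 had 2655, 2444, 2462 and 1651 normalized counts in HFSC and was higher in Thy1hi cells by 0.70 on the log2 scale (SE 0.33, limma adjusted p 0.169). Without HFSC replicate 4 its difference was 0.54 (limma adjusted p 0.331). Pkp1 had 6181, 4594, 5450.0 and 2497 in HFSC against 7313, 6803, 6853 and 9303 in Thy1hi libraries, a log2 difference of 0.76 (SE 0.39, adjusted p 0.208), and 0.48 without HFSC replicate 4. The differences of Dsg3, Dsc3 and Pkp1 did not pass the test.

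Dsc3, the basal desmocollin, had 12092.5, 9179.6, 11013 and 9903 normalized counts in HFSC. Thy1hi libraries had 12700.2, 12700.2, 15779.6 and 12928, and Thy1- libraries 14376, 12718, 17812 and 13259. Both keratinocyte populations thus lay wholly above HFSC, by 0.36 (SE 0.34, limma adjusted p 0.515) and 0.46 (SE 0.34, adjusted p 0.412) on the log2 scale. These 2 comparisons share the HFSC libraries. Dsg2 and Dsc3 were the 2 of the 10 genes whose Thy1- libraries all lay above HFSC (6.16% of all genes).

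Dsc1 had 807, 788.5, 1511 and 675 normalized counts in HFSC, which placed HFSC with Thy1- cells. The log2 difference was -1.31 for Thy1hi minus HFSC (SE 0.57, limma adjusted p 0.136, exact permutation p 0.0571) and 0.20 for Thy1- minus HFSC (SE 0.57, adjusted p 0.850). The 10 suprabasal markers had a median log2 difference of -1.25 between Thy1hi cells and HFSC (0 called higher, 1 lower) and of -0.05 between Thy1- cells and HFSC (0 called). Of all genes, 13.4% and 6.08% were called in these comparisons.

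Of the plaque genes, Dsp had its highest mean in HFSC, with 81226, 67035, 92711 and 58749 normalized counts. It overlapped with Thy1hi (55066 to 77613) and Thy1- (58246 to 73095) libraries, and the log2 differences were -0.20 (SE 0.36) for Thy1hi minus HFSC and -0.15 (SE 0.36) for Thy1- minus HFSC, the second of which turned to 0.40 under quantile normalization. Jup had 6274, 5388, 6685 and 1747 in HFSC, so that 1 library set its low mean. The log2 difference of Jup between Thy1hi cells and HFSC was 0.54 (SE 0.36, limma adjusted p 0.338), and 0.09 (adjusted p 0.873) without HFSC replicate 4. The exact permutation p was 0.286. Pkp3 followed the same course, at 0.31 (SE 0.38, adjusted p 0.624) and 0.07 without that library. The median over the 10 genes was 0.33 against 0.02 over all genes for Thy1hi minus HFSC, and 0.36 against 0.04 for Thy1- minus HFSC. Both medians include HFSC replicate 4. Without that library the differences of all genes but Dsg1a were lower in both comparisons. Dsc2 then stood at 0.06 and 0.08 and Pkp1 at 0.48 and 0.23 for Thy1hi and Thy1- cells minus HFSC. The medians without it were not computed.

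**Figure D3:**
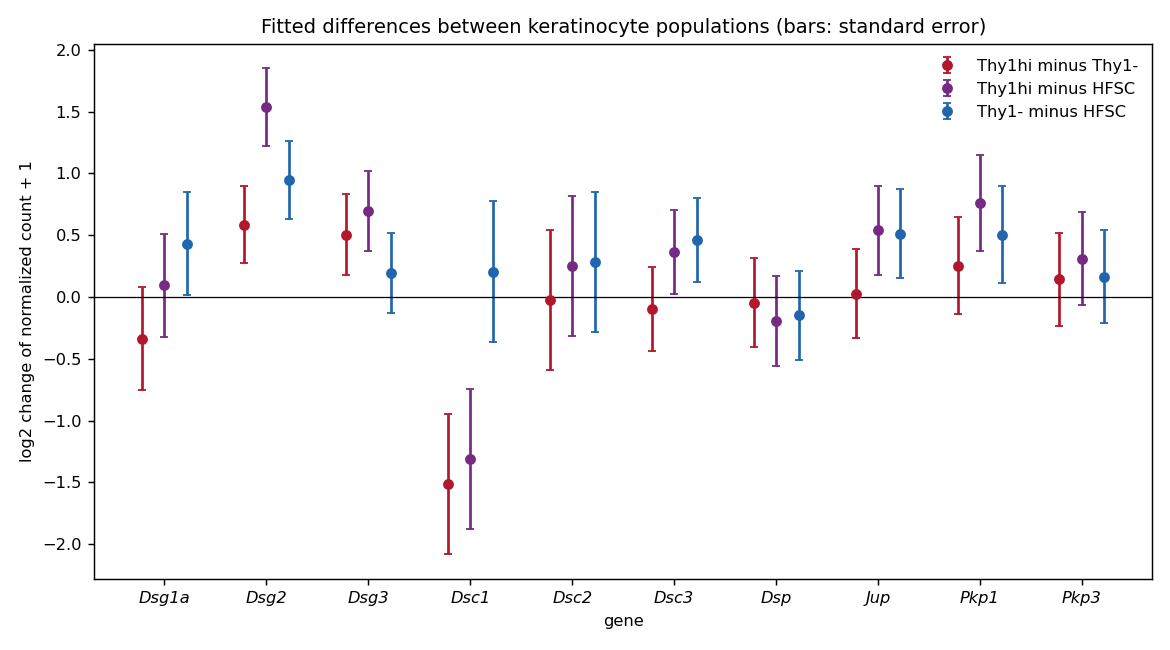
Fitted log2 differences of normalized count + 1 (y axis) with standard errors for the 10 genes (x axis) in 3 comparisons among keratinocyte populations, which share libraries. Thy1hi minus HFSC is furthest above 0 for Dsg2 (1.53), and both comparisons of Thy1hi cells are furthest below 0 for Dsc1 (-1.51 and -1.31).

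Thy1hiYFP+ cells were compared with both Sca1+ populations. None of the 10 genes was called against Thy1hi cells (0.0116% of all genes were) or against Thy1- cells (0.761% of all genes). edgeR (0.0116% and 0.831% of all genes) and DESeq2 (0.926% and 4.05%) also called 0 in both. An unadjusted limma p under 0.05 was reached by 2 of the 10 against Thy1hi cells, Dsg2 and Dsc1 (1561 of 17204 genes did). Against Thy1- cells it was reached by 0 (2307 of 17204 genes did). With 3 against 4 libraries the exact permutation p cannot fall below 0.0571.

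Dsg2 had 733, 699.8 and 1221 normalized counts in Thy1hiYFP+ replicates 1 to 3. All 3 lay below the lowest Thy1hi library at 1436. Against Thy1- libraries, at 743 to 1285, replicates 1 and 2 lay below the lowest and replicate 3 lay within the range. The log2 difference from Thy1hi cells was -0.83 (SE 0.34, limma adjusted p 0.479, exact permutation p 0.0571), and that from Thy1- cells was -0.24 (SE 0.34, adjusted p 0.807). Dsg2 was the 1 gene of the 10 wholly below Thy1hi cells (5.55% of all genes).

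Dsc2, the scarcest of the 10 genes, had its highest mean in Thy1hiYFP+ cells. It had 113, 94.4 and 95.1 normalized counts in Thy1hiYFP+ cells, against 33.1, 48.7, 84.5 and 23.3 in Thy1hi and 31.6, 74.05, 68.6 and 21.3 in Thy1- libraries. All Thy1hiYFP+ libraries were above both groups. The log2 differences were 1.23 (SE 0.61, limma adjusted p 0.564) and 1.20 (SE 0.61, adjusted p 0.406), each with an exact permutation p of 0.0571, and neither passed. Libraries wholly above Thy1hi cells were found for 1 of the 10 genes (Dsc2; 4.92% of all genes) and above Thy1- cells for 2 (Dsc2 and Pkp1; 7.76% of all genes).

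Dsc1 had 1481, 1255 and 489 normalized counts in Thy1hiYFP+ cells. It overlapped with Thy1hi cells, at a log2 difference of 1.42 (SE 0.61, limma adjusted p 0.506), because Thy1hiYFP+ replicate 3 lay between Thy1hi replicates 2 and 3. That replicate also had the lowest Krt10 of its group, 6538 normalized counts against 31643 and 19651. Pkp1 had 10038, 7478 and 8166 and differed from Thy1- cells by 0.43 (SE 0.42, adjusted p 0.706). For Dsg1a, Dsg3, Dsc3, Dsp, Jup and Pkp3 both comparisons gave log2 differences from -0.20 to 0.40. The suprabasal markers, summing to 21142 to 71817 in Thy1hiYFP+ cells, had a median log2 difference of 1.16 from Thy1hi cells (0 of 10 called), and the fibroblast markers, summing to 34.7 to 187, one of -2.24 (0 of 5 called). Their part in the values of Dsc1 and Dsg2 was not tested.

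**Figure D4:**
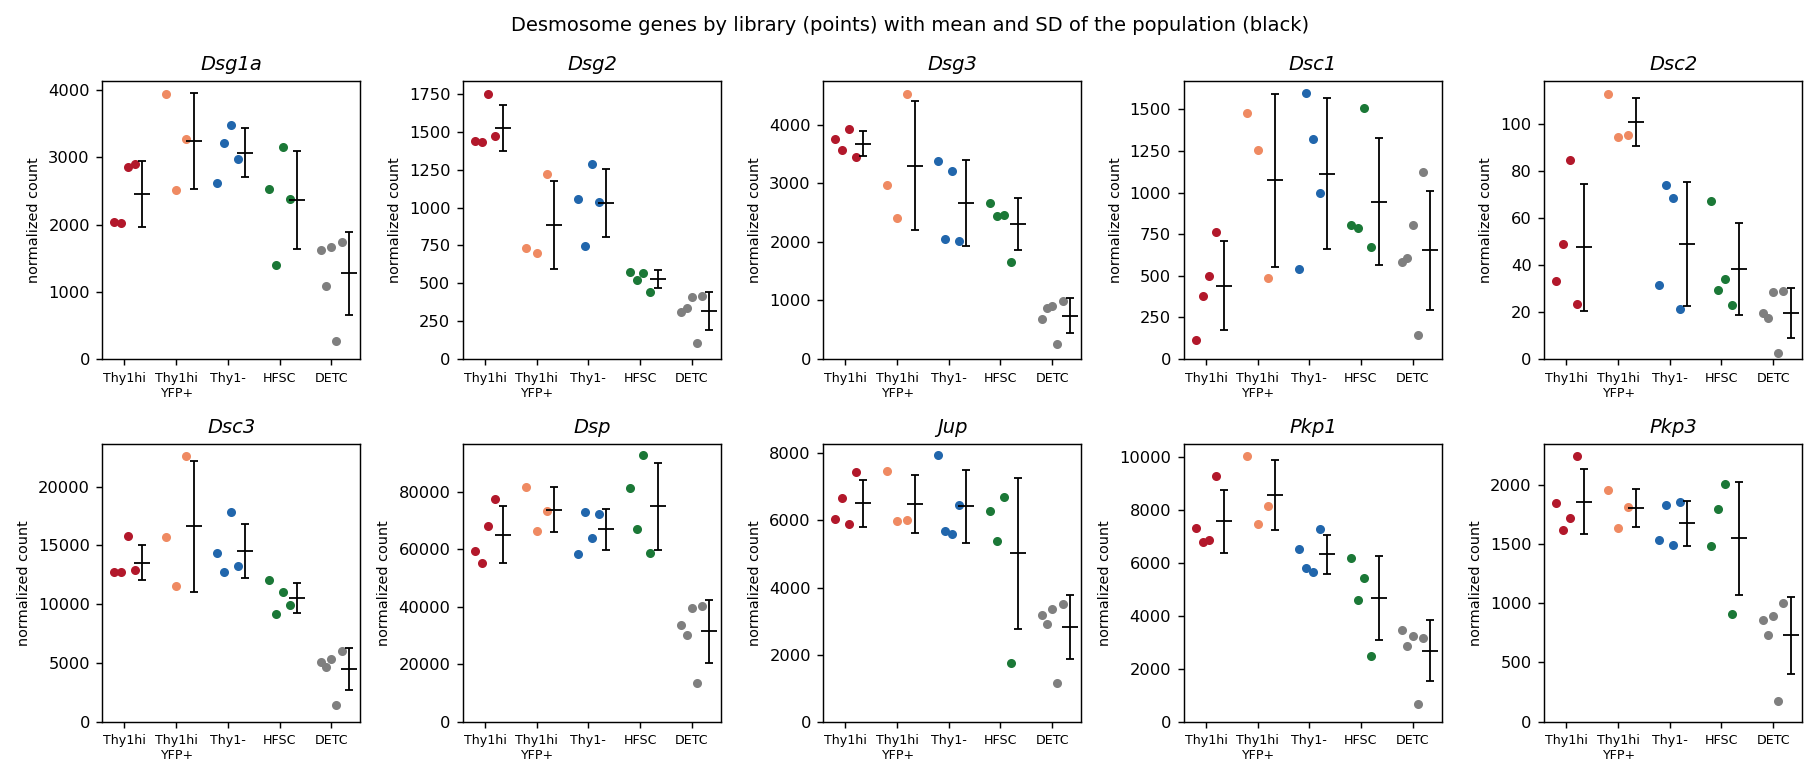
Normalized counts (y axes from 0) of the 10 desmosome genes in each library (points), with black marks for the mean and SD of each population. Thy1hi libraries are the highest for Dsg2 (1436 to 1753), DETC libraries are low throughout except for Dsc1, and Jup shows 1 low HFSC library (1747).

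DETC are T cells that reside among keratinocytes, and T cells do not build desmosomes. Against Thy1hi cells, 9 of the 10 genes were called lower in DETC, that is, higher in Thy1hi cells (16.6% of all genes were called in that direction and 36.6% in either), and 8 had every Thy1hi library above every DETC library (14.4% of all genes). The exceptions were Dsc1, which was not called, and Dsc2, which was called but overlapped. The median log2 difference over the 10 genes was 1.47, against 0.0044 over all genes.

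Dsg2 and Dsg3 differed most, and all log2 differences here are Thy1hi minus DETC. Dsg2 had 312, 339, 411, 104 and 414 normalized counts in DETC replicates 1 to 3, a and b, a log2 difference of 2.41 (SE 0.30) with a limma adjusted p of 2.01e-06. Dsg3 had 691, 866, 902, 252 and 993, a log2 difference of 2.45 (SE 0.31) with an adjusted p of 2.55e-06. Both lay far below the Thy1hi libraries, and the exact permutation p of 0.0159 is the smallest that 4 against 5 libraries allow. Without DETC a the differences were 2.05 and 2.10.

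Dsc3 had 5056, 4667, 5347, 1397 and 6047 normalized counts in DETC, and the log2 difference was 1.74 (SE 0.32, limma adjusted p 0.00022). Among plaque genes the log2 differences were 1.70 for Pkp1 (SE 0.37, adjusted p 0.00103), 1.55 for Pkp3 (SE 0.36, adjusted p 0.00169), 1.30 for Jup (SE 0.34, adjusted p 0.00466) and 1.14 for Dsp (SE 0.34, adjusted p 0.0121). These and Dsg1a (1.18, SE 0.39, adjusted p 0.0222) were still called without DETC a. Dsc2 was not: it had 19.6, 17.3, 28.5, 2.74 and 28.8 in DETC, its adjusted p was 0.0479 (log2 difference 1.39, SE 0.54), and without DETC a the difference was 0.85 (adjusted p 0.14).

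Dsc1 had 580.2, 610.2, 806, 145 and 1127 normalized counts in DETC, and 3 of the 5 libraries lay within the range of Thy1hi cells. The log2 difference was -0.58 (SE 0.54, limma adjusted p 0.450, exact permutation p 0.429), and -1.06 (adjusted p 0.096) without DETC a. Seen against Thy1- cells, Dsc1 in DETC stood at a mean of 58.7%, the highest of the 10 genes, and Dsg3 at 27.8%, the lowest.

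Desmosome transcripts did not fall to 0 in DETC. As a percentage of the Thy1- mean, the mean over DETC libraries had a median of 41.9% over the 10 genes. The same measure had a median of 35.3% over the 8 basal markers and 63.7% over the 10 suprabasal markers, and Krt5 and Krt14, which T cells lack, still had 3248 to 16494 and 3319 to 16495 normalized counts in DETC. In DETC a the median over the 10 genes was 10.2%, over the basal markers 10.6% and over the suprabasal markers 14.2%. Keratin and desmosome transcripts were thus both low in that library, while its T cell marker sum, 40345 normalized counts, was the highest of the 5 DETC libraries (lowest 19486) and no other population exceeded 429. The source of the keratin and desmosome transcripts in DETC libraries was not tested. Bulk samples such as these also cannot tell a number of keratinocytes from an amount of RNA per keratinocyte.

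**Figure D5:**
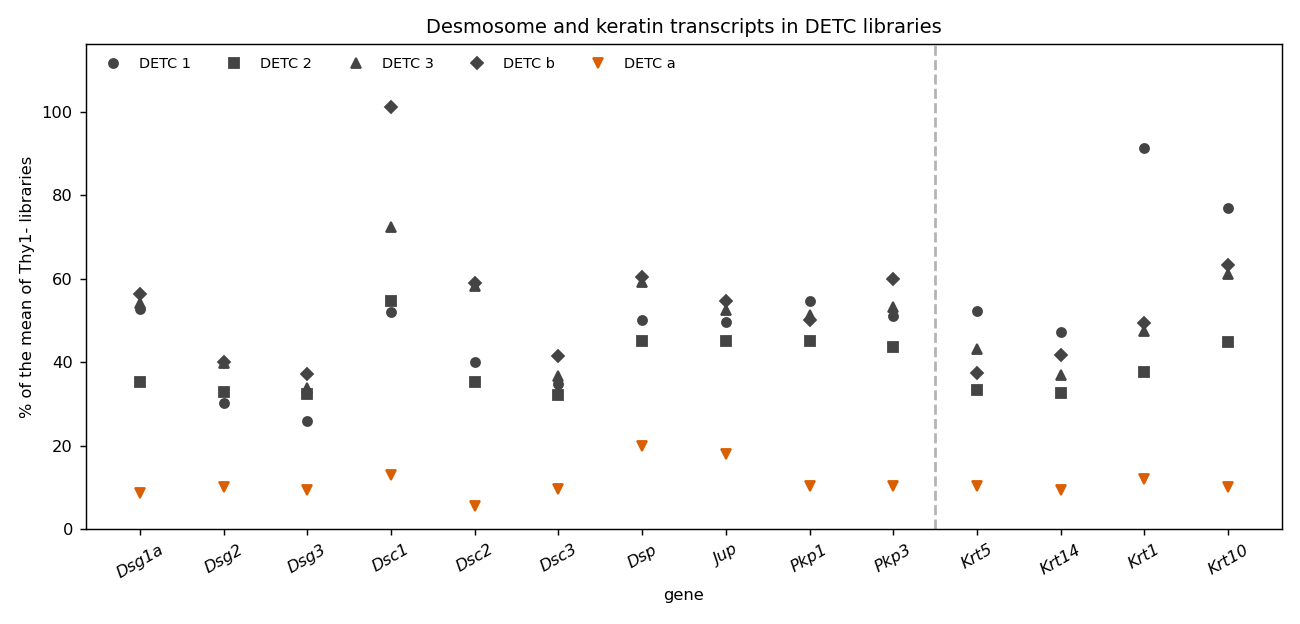
Level of each gene (x axis) in the 5 DETC libraries as a percentage of the mean of the Thy1- libraries (y axis), with keratins to the right of the dashed line. DETC a (orange) is the lowest for every gene shown, and the other 4 libraries of Dsg2 and Dsg3 lie below those of Dsp and Jup.

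Further genes of desmosomes and the cornified layer were taken as a list of 9. Between Thy1hi and Thy1- cells 0 of the 9 were called (0.337% of all genes were). With the block 1 rose and 2 fell (6.61% of all genes were called). The gene that rose was Pkp4, an armadillo protein related to the plakophilins: it had 1519, 1299, 1279 and 1264 normalized counts in Thy1hi and 974, 840.0, 884 and 886 in Thy1- libraries. The groups did not overlap, and the log2 difference was 0.58 (SE 0.27, limma adjusted p 0.672, or 0.00475 with the block). The genes that fell were Cdsn, which codes for corneodesmosin of the uppermost layers (-1.23, adjusted p 0.801, or 0.0137 with the block), and Dsg1b (-0.58, adjusted p 0.999, or 0.0473 with the block).

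Pkp4 was also the 1 gene of these 9 called against HFSC, in both keratinocyte populations. There 13.4% of all genes were called for Thy1hi cells and 6.08% for Thy1- cells. HFSC had 502, 446, 588 and 364 normalized counts of Pkp4, below all Thy1hi and Thy1- libraries, and the log2 differences were 1.51 (SE 0.27, limma adjusted p 0.000775) and 0.93 (SE 0.27, adjusted p 0.0466). Pkp4 and Dsg2 thus had their means in the same order, Thy1hi, Thy1- and HFSC, but DETC had 784 to 2534 normalized counts of Pkp4, with no difference from Thy1hi cells called (0.06, adjusted p 0.901).

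Against DETC, 3 of the 9 genes were called higher in Thy1hi cells and 1 lower (16.6% of all genes were called higher and 36.6% in either direction). Perp, a membrane protein of desmosomes, differed by 1.62 (SE 0.33, limma adjusted p 0.000538). Ppl and Evpl, the plakins periplakin and envoplakin that link desmosomes to the cornified envelope, differed by 1.26 (SE 0.33, adjusted p 0.00501) and 0.75 (SE 0.20, adjusted p 0.00467). Pkp2, the plakophilin of the heart and simple epithelia, was low everywhere but higher in DETC, with 18.3 to 33.3 normalized counts against 5.52 to 7.76 in Thy1hi cells (log2 difference -1.88, SE 0.48, adjusted p 0.0037). Dsg1c had means of 8.06 to 22.1 normalized counts and Dsg4 of 1.08 to 13.1 over the 5 populations. In Thy1hiYFP+ cells 0 of the 9 were called against Thy1hi or Thy1- cells (0.0116% and 0.761% of all genes were).

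The 10 adherens junction genes, a neighbouring kind of junction, had a median log2 difference of -0.09 between Thy1hi and Thy1- cells (0 called without the block, and 1 higher and 2 lower with it). The shares of all genes called in these fits were 0.337% and 6.61%. Against HFSC 2 were called higher and 1 lower in Thy1hi cells, and the same counts were found in Thy1- cells. In these comparisons 13.4% and 6.08% of all genes were called. Against DETC 7 were called higher in Thy1hi cells (16.6% of all genes were), with a median of 0.97 over the 10.

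Over the 15 libraries other than DETC, the mean of the 10 genes' centred log2 levels was lowest in HFSC replicate 4 (-0.78) and highest in Thy1hiYFP+ replicate 1 (0.42). The 5 genes most like this mean were Ptgs1 (Pearson r = 0.94), Cltc (0.92), Gng12 (0.91), Thbd (0.90) and Actr2 (0.89), each over 15 libraries that share their scaling and populations. These are descriptions of likeness across libraries.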

How the data were processed

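Bulk RNA of 20 libraries was analysed from 1 table of the whole series, whose columns match its samples except for 2 DETC columns. Its values are normalized counts, a signal per gene that the authors deposited after alignment to mm10 with STAR, counting against Ensembl genes with featureCounts and normalization with DESeq2. The versions of STAR and featureCounts are not given in the sources used here. The labels name an Illumina mRNA kit or the SMARTer Stranded Total RNA kit, and which library had which is not given in the sources used here. Within a column, values are whole reads divided by 1 size factor (0.729 to 1.43): 100% of values came out whole within 0.1 read. In the column of Thy1- replicate 4, values of 3212 genes had been placed in another order and were put back (correlation with the group 0.0606 before, 0.932 after); 0 of the 10 members were moved. Of the DETC columns, 2 could be tied to the population only (a and b). Exon lengths and strands came from GENCODE M21 (53274 of 53380 genes matched), and gene coordinates are those deposited with the values.

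The main test was limma 3.58.1 (R 4.3.3) with a trend, on log2(normalized count + 1), in 1 fit of all 20 libraries, with Benjamini-Hochberg adjustment over 17204 genes and an adjusted p threshold of 0.05. Fold changes are on that scale and understate the change of low genes. Single genes were also tested by exact two-sided permutation of log2 values, doubling the smaller tail (scipy 1.17.1). The alternatives were pseudocounts of 0.1 and 10, other filters and scalings, edgeR 4.0.16 and DESeq2 1.42.0 on the recovered reads, only the 2 populations, the replicate number as a block, the deposited order, and each library left out. edgeR called 44, 2498, 1288, 6074, 2 and 143 genes in Thy1hi minus Thy1-, Thy1hi minus HFSC, Thy1- minus HFSC, Thy1hi minus DETC, Thy1hiYFP+ minus Thy1hi and Thy1hiYFP+ minus Thy1-. The scripts were tested on simulated data. Same-numbered Thy1hi and Thy1- libraries deviated together (r 0.293 to 0.716 over 4 pairs, against -0.651 to 0.514 for other pairs), so blocked values stand beside that comparison where they change a call; this pairing comes from the data and the shared numbers. Named were all 10 members, 9 further desmosome genes, a few markers and the 5 genes most alike. The members and gene lists were chosen with earlier results of these data known.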

Additional observations from a re-analysis of the deposited data

Results flagged for a closer look

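In 48 sets of 4 or 5 libraries of 1 population, 5 held a library far from the others of its group by Dixon's criterion, and chance alone flags about 1 set in 20. Dsg2 in Thy1hi replicate 3 was 1753 normalized counts, against 1436 to 1472 in the other Thy1hi libraries. Dsc3 was also highest in Thy1hi replicate 3, at 15780 normalized counts against 12700.2 to 12928. Dsc1 in HFSC replicate 3 was 1511, against 675 to 807 in the other HFSC libraries. In DETC a, Jup was 1162 normalized counts against 2901 to 3508 in the other DETC libraries, and Pkp1 was 651.7 against 2847 to 3454. The low values of Jup and Pkp1 in DETC a stood beside low values of all the other members and of Krt5 and Krt14 in that library, and the part of any keratinocyte RNA in them was not tested.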

How the results depend on the processing

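Leaving out 1 library at a time gave 0 to 0 members called for Thy1hi minus Thy1-, 1 to 1 for Thy1hi minus HFSC, 0 to 0 for Thy1- minus HFSC, 7 to 9 for Thy1hi minus DETC and 0 to 0 for both comparisons of Thy1hiYFP+ cells. The replicate block raised the count to 3 for Thy1hi minus Thy1- in a fit of those 2 populations (1137 of 17204 genes were called). The block over all populations gave 0 for Thy1hi minus Thy1- (216 of 17204 genes were called) and 3 for Thy1hi minus HFSC (3799 of 17204). It gave 1 for Thy1- minus HFSC (2701 of 17204) and 1, Dsg2, for Thy1hiYFP+ minus Thy1hi (161 of 17204). Numbers in these last comparisons are shared only as numbers (same-number r from -0.232 to 0.333). With only the 2 populations in the fit, 2 were called for Thy1hi minus HFSC (1838 of 17204 genes) and 1 for Thy1- minus HFSC (640 of 17204). For Thy1- minus HFSC 1 was also called under quantile normalization (1451 of 17204) and 1 under DESeq2 (2402 of 17201). Of 714 values of single members under other settings, 679 kept direction and call, and 14 changed sign. Quantile normalization gave 0.0054 for Dsc2 and -0.022 for Jup in Thy1hi minus Thy1-, -0.10 for Dsg1a in Thy1hi minus HFSC, 0.40 for Dsp in Thy1- minus HFSC, 0.067 for Jup and 0.051 for Pkp3 in Thy1hiYFP+ minus Thy1hi, and -0.37 for Dsp in Thy1hiYFP+ minus Thy1-. Rescaling without Rn45s gave -0.047 for Jup in Thy1hi minus Thy1-, and 0.062 for Jup and 0.034 for Pkp3 in Thy1hiYFP+ minus Thy1hi. For Jup in Thy1hiYFP+ minus Thy1hi, edgeR gave 0.0038 and the block 0.061 (Pkp3, 0.061). The block over all populations gave -0.10 for Jup in Thy1hiYFP+ minus Thy1-. The cause was not tested.

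Leaving out 1 library changed the sign of small differences. In Thy1hi minus Thy1- the values ranged from -0.36 to 0.25 for Dsc2, -0.17 to 0.0037 for Dsc3, -0.14 to 0.029 for Dsp and -0.039 to 0.13 for Jup. In Thy1hi minus HFSC they ranged from -0.14 to 0.25 for Dsg1a and -0.074 to 0.55 for Dsc2, and in Thy1- minus HFSC from -0.0055 to 0.51 for Dsc1 and -0.070 to 0.31 for Pkp3. In Thy1hiYFP+ minus Thy1hi they ranged from -0.11 to 0.061 for Jup and -0.10 to 0.061 for Pkp3. In Thy1hiYFP+ minus Thy1- they ranged from -0.091 to 0.23 for Dsg1a, -0.40 to 0.40 for Dsc1, -0.10 to 0.39 for Dsc3 and -0.084 to 0.13 for Jup. The log2 ratios of Thy1- minus HFSC ranged from -0.44 to 0.033 for Dsg3 to Dsg1a and -0.052 to 0.52 for Dsc3 to Dsc1.

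Quantile normalization moved the median of all genes to 0.20 in Thy1hi minus DETC and the difference of Dsp to 0.43 (limma adjusted p 0.509). Dsp also missed the threshold with no filter (adjusted p 0.15) and with the block over all populations (0.0546). Dsg1a missed it with no filter (0.114), with only the 2 populations (0.0719), and without Thy1hi replicate 3 (0.0595) or 4 (0.0605), and Dsc2 in 10 alternatives. Dsc1, not called, was called lower with the block over numbered libraries 1 to 3 (-1.22, adjusted p 0.00824). Over all genes, limma called 58 in Thy1hi minus Thy1-, against 210 with DESeq2, 95 with only the 2 populations, 18 with no filter, 1137 with the replicate block and 13 without Thy1- replicate 3. In Thy1- minus HFSC it called 1046, against 2402 with DESeq2, 569 with no filter, 329 with the block and 1965 without Thy1- replicate 4. In Thy1hi minus HFSC it called 2300, against 1369 with the block and 3799 with the block over all populations. Against Thy1hi and Thy1- cells, Thy1hiYFP+ cells had 2 and 131 genes called, or 113 and 562 with DESeq2. The 131 became 20 without Thy1hiYFP+ replicate 1, 312 without replicate 2 and 10 without replicate 3. For the ratios, an exact sign-flip test over 4 pairs cannot fall below 0.125 and so cannot pass. Dsc2 rests on few reads.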
